A study of Homo sapiens with 6 samples.

Results

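The interferon-stimulated genes described here are 36 named genes of the antiviral response, leaving out the sensors of viral RNA, measured in PC9, a human lung adenocarcinoma cell line. Cells given an antagomir against tsRNA-5001a (3 knockdown libraries) were compared with cells given the negative control antagomir (3 control libraries). Small RNAs cut from transfer RNAs are called tsRNAs, and antagomirs are modified antisense oligonucleotides that bind a small RNA. Genes were chosen by symbol, with earlier results of these data known, so their shares beside those of all genes are descriptions and not tests. All 36 were among the 58174 genes of the table, 35 had at least 10 counts over the 6 libraries, and 33 had enough counts to be tested. Dose, exposure time and transfection are not described in the labels, and libraries of a group are not said to come from separate cultures, so the spread that p-values rest on may be technical. The gene table does not measure the tsRNA, so its knockdown was not checked here.

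Type I and type III interferons are secreted proteins that bind receptors on the same or neighbouring cells. The receptors activate JAK kinases, which phosphorylate STAT2; with IRF9 it is part of ISGF3, the factor that binds the interferon-stimulated response element (ISRE) in front of its target genes. The targets encode antiviral effectors, and also STAT2, IRF7, IRF9 and USP18 themselves, so that the response feeds back on its own machinery. Many epithelial and tumour cells keep a low level of these transcripts without added interferon.

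In edgeR's quasi-likelihood fit, 4 of the 33 genes rose after knockdown and none fell. At an unadjusted p under 0.05, 16 were higher and 0 lower, where 9.77% of all genes tested were higher at that p. DESeq2 called 7 higher and 0 lower, where it called 2.54% of all genes higher. The genes that rose were IFI27, IFI6, IFI44 and IFI44L, which were between 2.96-fold and 4.74-fold higher. Over all 19040 genes tested, 1.10% rose at the same threshold, an edgeR adjusted p of 0.05. The well-known interferon targets ISG15, IFIT3, USP18, UBE2L6 and BST2 did not pass the test, and BST2, the most abundant of the 36 per length, had a fold of 1.01 with a 95% interval of 0.842 to 1.21. In bulk RNA, more RNA per cell and a larger share of cells with the transcript cannot be told apart.

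The ISRE was looked for in RefSeq promoter windows (GRCh38.p14; 250 bases before to 50 after a gene start), which matched 30 of the 36 genes. Shown are the stretches around the ISRE core, GAAANNGAA on either strand, of the 4 genes that rose and of ISG15 and BST2, which carry the same letters and were not past the test. Each runs 5′ to 3′ along the gene's strand, and the capitals mark the ISRE core (GAAANNGAA, or its reverse complement).
IFI27 (chr14:94110603-94110669, plus strand): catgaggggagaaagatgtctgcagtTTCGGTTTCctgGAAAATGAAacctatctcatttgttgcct
IFI6 (chr1:27672257-27672374, minus strand): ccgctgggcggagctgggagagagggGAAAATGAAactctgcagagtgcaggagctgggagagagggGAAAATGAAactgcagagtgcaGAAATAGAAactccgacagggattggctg
IFI44 (chr1:78649746-78649788, plus strand): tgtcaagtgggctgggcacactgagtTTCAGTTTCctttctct
IFI44L (chr1:78620258-78620403, plus strand): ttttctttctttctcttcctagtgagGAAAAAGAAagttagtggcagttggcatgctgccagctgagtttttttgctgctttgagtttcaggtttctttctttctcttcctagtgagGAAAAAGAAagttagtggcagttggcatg
ISG15 (chr1:1013358-1013424, plus strand): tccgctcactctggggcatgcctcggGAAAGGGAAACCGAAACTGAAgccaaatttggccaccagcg
BST2 (chr19:17405726-17405786, minus strand): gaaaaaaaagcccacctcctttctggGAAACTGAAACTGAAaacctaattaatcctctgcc

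The arrangement of the core differed between these windows. In IFI27 a core on the opposite strand and a core on the gene's strand began 107 and 95 bases before the start. IFI6 held 3 cores, of which the first and the second each lay in a copy of a 29-base exact repeat, 41 bases apart. IFI44L held 2 cores, each in a copy of an exact repeat that covers 54 bases of the printed stretch, 91 bases apart. IFI44 had a single core, on the opposite strand, beginning 17 bases before the start. In ISG15 the run of capitals is 3 overlapping cores, and in BST2 it is 2. By the GENCODE 29 annotation the printed stretches of IFI6, IFI44 and BST2 lie upstream of the gene. Those of IFI27, IFI44L and ISG15 lie within the body of the gene, whose annotated start is further upstream, and 0, 22 and 2 of their bases are exonic.

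The motif shares were as follows. The ISRE core was in the windows of 22 of 30 of the interferon-stimulated genes (73.3%), against 9.86% of 27305 genes with a window. Requiring 1 more A at the 3′ end left 21 of 30 (70.0%), against 4.38% of genes. The GAS motif TTCNNNGAA, the binding letters of STAT dimers, which reads the same on both strands, was in 9 of 30 (30%), against 9.38% of genes. Of the genes with an ISRE core 20 were tested, their median log2 fold change being 0.54, and 7 without it were tested, with a median of 0.19. STAT2, IRF1, IRF9, UBE2L6, HERC6, IFI35, SAMD9L and XAF1 had no ISRE core in this window, and no window was matched for IRF7, USP18, IFIT2, MX2, GBP2 and TRIM22. A match of letters is a description of the window and does not show that a factor binds there.

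**Figure D1:**
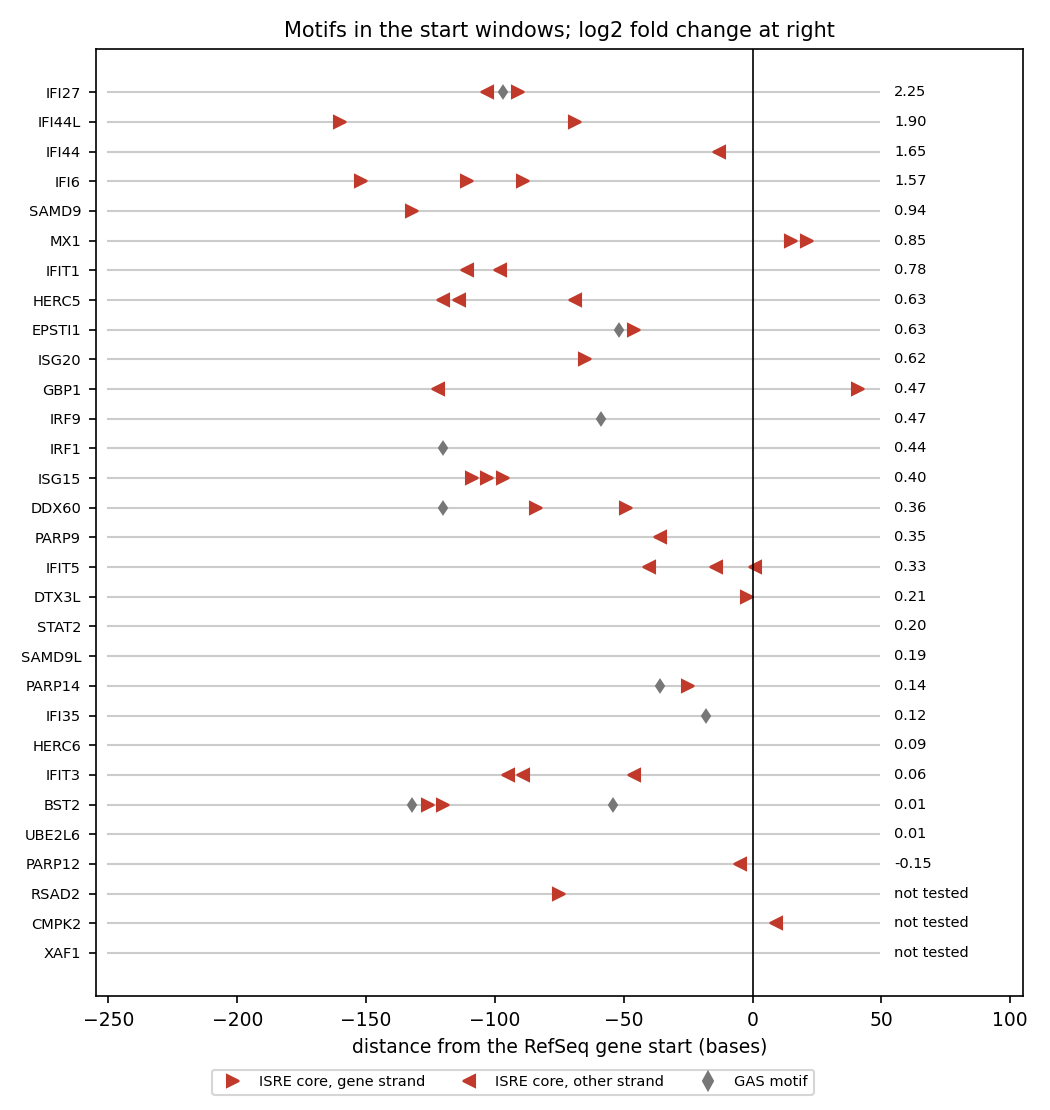
Positions of the ISRE core (red triangles, pointing right on the gene's strand and left on the other strand) and of the GAS motif (grey diamonds) relative to the RefSeq gene start, in bases, for the 30 genes with a window (of several, the window with most ISRE cores), ordered by log2 fold change (right). The 4 genes that rose stand at the top and all hold an ISRE core, and so do IFIT3, BST2 and PARP12 near the bottom, with log2 fold changes of 0.06, 0.01 and -0.15.

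The group named for interferon inducibility, IFI27, IFI6, IFI44, IFI44L and IFI35, held every gene that rose. IFI27 (ENSG00000165949), which encodes a small hydrophobic protein of mitochondrial membranes, spans 94104836 to 94116698 on the plus strand of chromosome 14. It had 3.64, 4.12 and 4.86 CPM (counts scaled to a common library total) in the knockdown libraries, against 0.882, 0.992 and 0.785 CPM in the controls. All knockdown libraries stood well above all controls, and the spread within each group was narrow. The log2 fold change of IFI27 was 2.25 with a standard error of 0.24 (edgeR adjusted p 0.00513), a fold of 4.74 with a 95% interval of 3.26 to 6.89. IFI27 was past the test in 14 of 15 alternative settings, the exception being a fit with the replicate number as a block, where its adjusted p was 0.0521.

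IFI6 (ENSG00000126709), which encodes a related small hydrophobic protein that protects endoplasmic reticulum membranes from use by flaviviruses, spans 27666061 to 27672218 on the minus strand of chromosome 1. It was at 21.2, 39.5 and 41.1 CPM in the knockdown libraries and at 10.2, 13.7 and 10.5 CPM in the controls. Knockdown library 1 stood nearer to the controls than the other two knockdown libraries did. IFI6 rose by a log2 fold change of 1.57 ± 0.26 (SE; edgeR adjusted p 0.0355), or 2.96-fold with a 95% interval of 1.95 to 4.50. With any library other than knockdown 1 left out it no longer passed, at log2 fold changes of 1.40 to 1.71.

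IFI44 and IFI44L are relatives that stand side by side on the plus strand of chromosome 1, IFI44L at 78619922 to 78646145 (ENSG00000137959) and IFI44 at 78649796 to 78664078 (ENSG00000137965), 3650 bases apart. IFI44 had 5.34, 9.10 and 6.22 CPM in the knockdown libraries and 2.27, 2.11 and 2.17 CPM in the controls. IFI44L had 3.91, 9.86 and 6.39 CPM in the knockdown libraries and 1.66, 1.67 and 2.07 CPM in the controls. Both genes were highest in knockdown library 2 and lowest, within the knockdown group, in library 1, while the controls lay close together. IFI44 had a log2 fold change of 1.65 ± 0.24 (SE; edgeR adjusted p 0.0204), and IFI44L one of 1.90 with a standard error of 0.34 (edgeR adjusted p 0.0417). IFI44 was past the test in 10 of 15 settings and IFI44L in 6. Both lost the call without knockdown library 3 or any control library, where the log2 fold change was 1.62 to 1.72 for IFI44 and 1.84 to 2.0 for IFI44L. IFI44L also lost it without knockdown library 2, at 1.5. With the replicate number as a block neither passed, at 1.62 for IFI44 and 1.80 for IFI44L.

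IFI35, a leucine zipper protein gene named in the same way, had 16.4, 13.0 and 16.9 CPM in the knockdown libraries and 13.0, 16.0 and 13.7 CPM in the controls. The groups overlapped, and the log2 fold change was 0.12 (edgeR adjusted p 0.765). IFI27L1 and IFI27L2, the relatives of IFI27 on either side of it, were looked at after their values were seen. IFI27L1 averaged 4.24 ± 0.448 CPM in knockdown and 5.05 ± 0.772 CPM in control libraries (SD, n = 3 each), and IFI27L2 averaged 1.95 ± 1.04 CPM in knockdown and 2.14 ± 0.217 CPM in control libraries. Neither passed the test, with log2 fold changes of -0.25 and -0.12, and their difference from IFI27 was not tested.

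**Figure D2:**
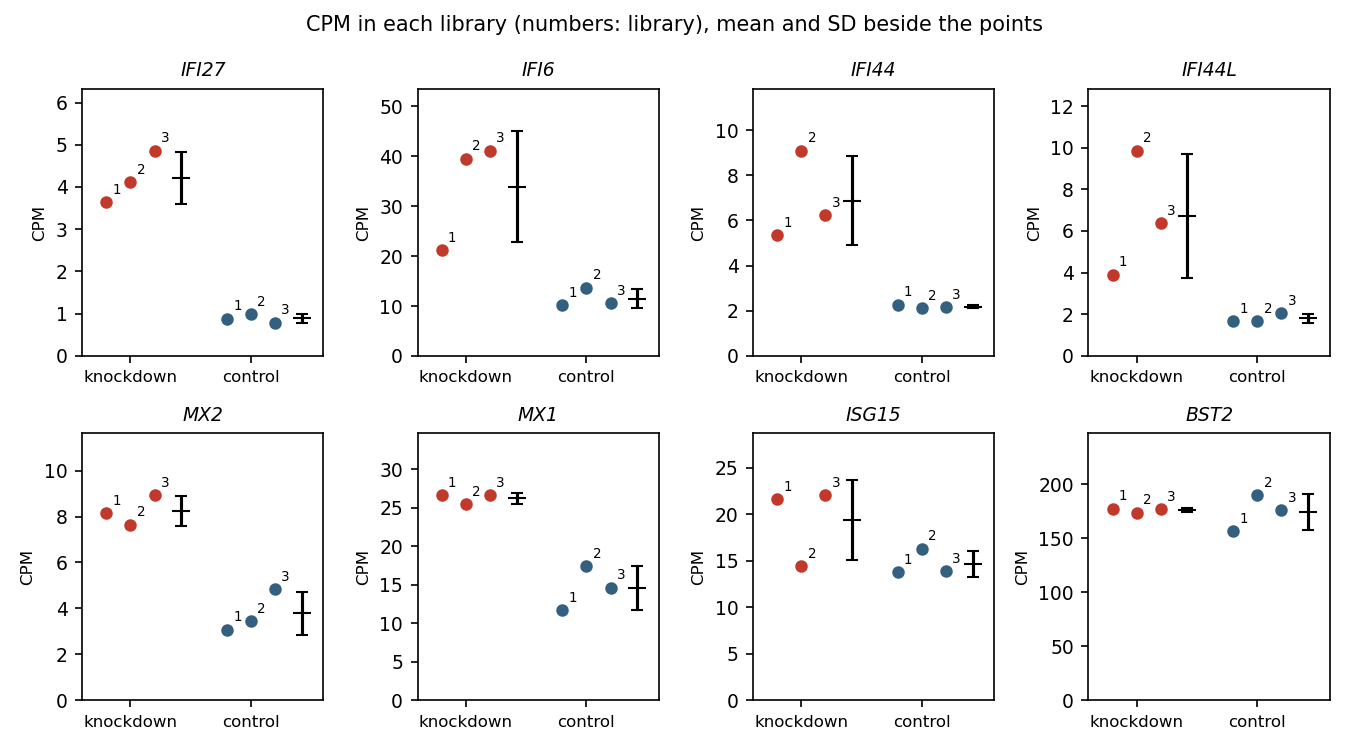
CPM in each knockdown library (red) and control library (blue) for the 4 genes that rose (upper panels) and for MX2, MX1, ISG15 and BST2 (lower panels), with library numbers beside the points and mean ± SD beside each group; each panel has its own axis from 0. The groups are apart for IFI27, IFI6, IFI44, IFI44L, MX2 and MX1, and overlap for ISG15 and BST2.

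In all 4 interferon-induced GTPase genes every knockdown library was above every control library, where 13.4% of all genes tested were higher without overlap. None of the 4 passed the edgeR test. At an unadjusted p under 0.05 were 3, where 9.77% of all genes tested were higher at that p, and DESeq2 called MX1 and MX2. MX1 and MX2 encode dynamin-like GTPases that trap incoming viral nucleocapsids, and they adjoin on chromosome 21, MX2 at 41361943 to 41409390 and MX1 at 41420304 to 41459214. MX1 had 26.7, 25.5 and 26.7 CPM in the knockdown libraries and 11.7, 17.4 and 14.6 CPM in the controls. MX2 had 8.13, 7.65 and 8.95 CPM in the knockdown libraries and 3.07, 3.44 and 4.84 CPM in the controls. For both genes the knockdown libraries were nearly level and the controls varied more. The fold of MX1 was 1.80 with a 95% interval of 1.38 to 2.37 (log2 fold change 0.85, standard error 0.17, edgeR adjusted p 0.0635). MX2 was just outside the threshold with a fold of 2.18 and a 95% interval of 1.54 to 3.06 (log2 fold change 1.12, standard error 0.22, edgeR adjusted p 0.0540). MX2 passed in 5 of the 15 alternative settings and MX1 in 2, DESeq2 among them for both.

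The guanylate-binding proteins GBP1 and GBP2, large GTPases that attack vacuoles of intracellular pathogens, respond mainly to interferon gamma. GBP1 averaged 5.78 ± 0.676 CPM in knockdown and 4.18 ± 0.143 CPM in control libraries (SD, n = 3 each; log2 fold change 0.47, edgeR adjusted p 0.260). GBP2 averaged 36.6 ± 1.26 CPM in knockdown and 31.0 ± 2.10 CPM in control libraries (log2 fold change 0.24, edgeR adjusted p 0.386). In both the groups did not overlap.

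Counting overlap over the whole set, 18 of the 33 genes had every knockdown library above every control library and none had every knockdown library below, while 13.4% of all genes tested were non-overlapping in the higher direction. The log2 fold change was above 0 for 32 of the 33, against 55.9% of all genes, and with DESeq2 size factors UBE2L6 and BST2 were also below 0. The median was 0.44, with a range of -0.15 to 2.25, against a median of 0.05 over all genes. By size, 6 genes were at least 2-fold higher, 7 were between 1.5-fold and 2-fold higher, and 20 were under 1.5-fold.

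Differences between the groups depended on abundance over the whole table. Below 2 on the log2 CPM scale 21.1% of all genes were higher without overlap, between 2 and 4 the share was 15.1%, between 4 and 6 it was 8.58%, and at 6 and over it was 4.46%. In the same ranges 2 of 3, 9 of 16, 7 of 10 and 0 of 4 of the interferon-stimulated genes were higher without overlap. Their median log2 fold changes were 1.29, 0.48, 0.42 and 0.08, where those of all genes were 0.26, 0.08, 0.01 and -0.08. In these ranges 2.07%, 1.31%, 0.354% and 0.143% of all genes rose. Of the interferon-stimulated genes 1 (IFI27), 2 (IFI44 and IFI44L), 1 (IFI6) and 0 rose. Those in the range of 6 and over, which held 3500 genes, were BST2, UBE2L6, DTX3L and PARP14. The part of abundance in the results was not tested beyond a fit with the abundance trend removed, in which IFI27, IFI6 and IFI44 passed and IFI44L, at a log2 fold change of 1.72, did not.

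**Figure D3:**
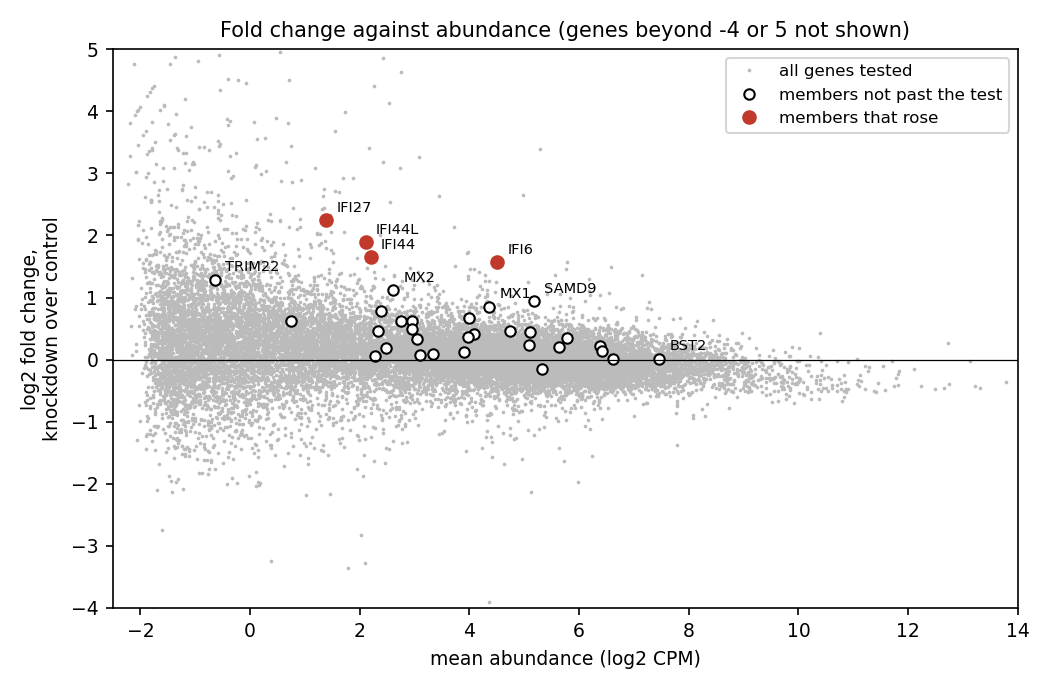
Log2 fold change (knockdown over control) against mean abundance (log2 CPM) for all genes tested (grey) and the interferon-stimulated genes (circles; red where adjusted p was under 0.05). The grey cloud sits above 0 at low abundance and below 0 at the highest abundance, and all but 1 of the circles lie above 0.

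**Figure D4:**
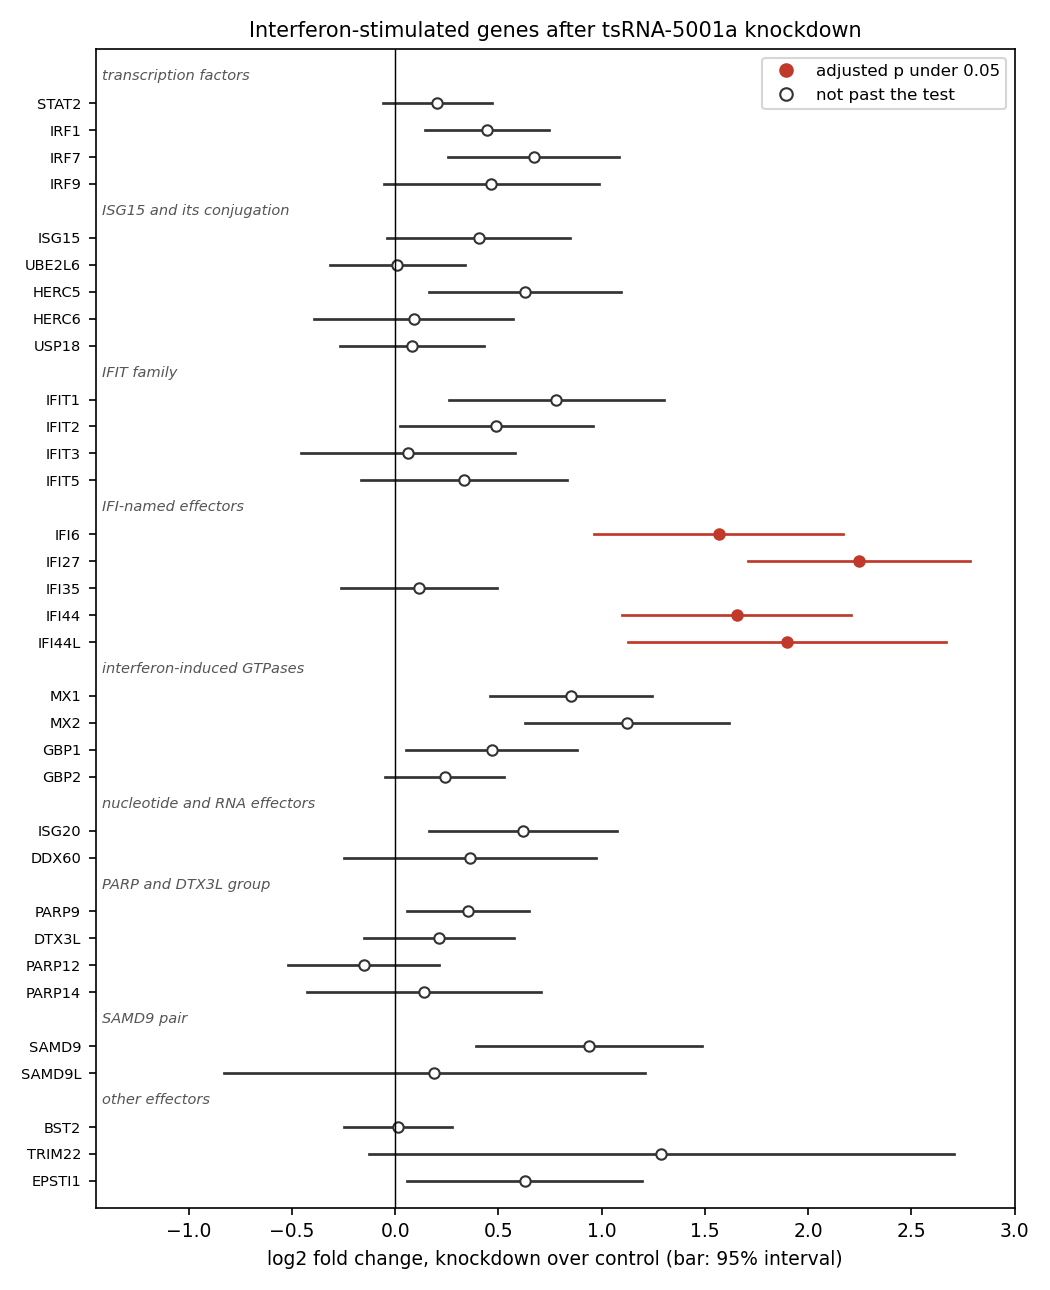
Log2 fold change (knockdown over control) of the 33 genes tested, with 95% intervals as bars, grouped by role; filled red points passed an edgeR adjusted p of 0.05. The intervals of 16 genes exclude 0 and those of 17 include it.

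None of the 4 transcription factors of the response passed the edgeR test, and their median log2 fold change was 0.46. DESeq2 called 0, and 2 were higher at an unadjusted p under 0.05, where 9.77% of all genes tested were. STAT2, the ISGF3 subunit that carries the activation domain, averaged 53.0 ± 1.70 CPM in knockdown and 46.0 ± 1.84 CPM in control libraries (SD, n = 3 each; log2 fold change 0.20, edgeR adjusted p 0.418). IRF1, an activator that responds most strongly to interferon gamma, was at 42.5, 35.6 and 41.0 CPM in the knockdown libraries and at 29.7, 30.0 and 27.8 CPM in the controls. IRF7, the factor that amplifies transcription of interferon alpha genes, was at 21.8, 15.8 and 20.8 CPM in the knockdown libraries and at 11.1, 14.2 and 11.4 CPM in the controls. The groups did not overlap for any of these 3 genes, where 13.4% of all genes tested were higher without overlap, and none passed the test. The log2 fold change of IRF1 was 0.44 (edgeR adjusted p 0.170) and that of IRF7 was 0.67 (edgeR adjusted p 0.142).

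IRF9, the DNA-binding subunit of ISGF3, had 31.1, 27.9 and 33.3 CPM in the knockdown libraries and 16.7, 30.7 and 19.5 CPM in the controls. Control library 2 lay within the knockdown range, and the log2 fold change was 0.47 (edgeR adjusted p 0.351). IRF9 counts are uncertain, because 48.4% of its exon bases are shared with AL136295.5, a gene on the same strand with a similar number of counts. IRF1 shares 22.0% of its exon bases with C5orf56 on the opposite strand, and whether counting used strand is not given in the sources used here.

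None of the 5 genes of ISG15 conjugation passed the edgeR test, and their median log2 fold change was 0.09. DESeq2 called 0, and 1 was higher at an unadjusted p under 0.05, where 9.77% of all genes tested were. ISG15, a ubiquitin-like protein attached to other proteins, had 21.6, 14.4 and 22.1 CPM in the knockdown libraries and 13.8, 16.3 and 13.9 CPM in the controls. Knockdown library 2 fell inside the control range, and the log2 fold change was 0.40 (edgeR adjusted p 0.344). HERC5, the main ligase for ISG15 in human cells, had 8.80, 11.8 and 7.52 CPM in the knockdown libraries and 5.67, 6.08 and 6.41 CPM in the controls. It was the only gene of the 5 whose groups did not overlap, where 13.4% of all genes tested were higher without overlap (log2 fold change 0.63, edgeR adjusted p 0.198). UBE2L6, the conjugating enzyme, averaged 98.9 ± 14.1 CPM in knockdown and 98.1 ± 8.29 CPM in control libraries (log2 fold change 0.01, edgeR adjusted p 0.976). HERC6, the neighbour of HERC5 and the ligase that serves this role in mice, was at a log2 fold change of 0.09 (adjusted p 0.865, edgeR). USP18, which removes ISG15 and blocks signalling at the type I receptor, was at 0.08 (edgeR adjusted p 0.828), at 8.36 to 8.93 CPM in knockdown and 7.78 to 8.82 CPM in control libraries. The difference between HERC5 and the others was not tested.

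The IFIT genes encode tetratricopeptide proteins that bind viral RNA ends and restrain translation. None of these 4 clustered genes of chromosome 10 passed the edgeR test, and their median log2 fold change was 0.41. DESeq2 called 0, and 2 were higher at an unadjusted p under 0.05, where 9.77% of all genes tested were. IFIT1 had 5.68, 8.57 and 5.45 CPM in the knockdown libraries and 3.77, 4.18 and 3.51 CPM in the controls, and IFIT2 had 7.50, 11.2 and 8.22 CPM in the knockdown libraries and 5.61, 6.88 and 6.70 CPM in the controls. Both were apart between the groups, where 13.4% of all genes tested were higher without overlap, and both were highest in knockdown library 2. The fold of IFIT1 was 1.72 with a 95% interval of 1.20 to 2.46 (log2 fold change 0.78, edgeR adjusted p 0.165), and the log2 fold change of IFIT2 was 0.49 (edgeR adjusted p 0.286). IFIT3, which stabilises IFIT1 on RNA, had 3.70, 6.15 and 4.96 CPM in the knockdown libraries and 4.49, 5.18 and 4.50 CPM in the controls. IFIT5 had 6.95, 12.0 and 8.50 CPM in the knockdown libraries and 6.98, 7.25 and 7.49 CPM in the controls. The groups overlapped for both, with log2 fold changes of 0.06 (edgeR adjusted p 0.913) for IFIT3 and 0.33 (edgeR adjusted p 0.482) for IFIT5. LIPA, on the opposite strand with 21763 counts, spans IFIT1 and IFIT3 without sharing exon bases with them, and shares 1.58% of those of IFIT2.

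RSAD2 and CMPK2 are neighbours on chromosome 2 whose ends overlap by 830 bases; RSAD2 (viperin) makes a chain-terminating nucleotide from the CTP that CMPK2 helps to supply. RSAD2 had 5, 4 and 15 counts in the knockdown libraries and 0 counts in every control library. With 3 counts summed over the controls taken as the floor, RSAD2 was 7.54-fold higher. That value allows for counting error in the controls only and is not a lower bound. RSAD2 was below the filter on low counts and was tested only without that filter, where its edgeR adjusted p was 0.198. CMPK2 had 8 counts, all in knockdown library 2, which is under the minimum of 10. ISG20, an exonuclease that degrades RNA, had 9.01, 6.59 and 8.55 CPM in the knockdown libraries and 4.52, 5.21 and 6.0 CPM in the controls, without overlap (log2 fold change 0.62, edgeR adjusted p 0.196). DDX60, an antiviral helicase, had 11.0, 23.4 and 18.6 CPM in the knockdown libraries and 14.8, 11.3 and 15.1 CPM in the controls. Knockdown library 1 was the lowest of all 6 for DDX60, and its log2 fold change was 0.36 (edgeR adjusted p 0.535).

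None of the 4 genes of the PARP and DTX3L group passed the edgeR test, and their median log2 fold change was 0.18. DESeq2 called 0, and 1 was higher at an unadjusted p under 0.05, where 9.77% of all genes tested were. PARP9 and the ubiquitin ligase DTX3L act as a complex, and their genes overlap head to head on chromosome 3 by 340 bases. PARP9 had 57.3, 69.8 and 57.8 CPM in the knockdown libraries and 46.7, 48.6 and 49.5 CPM in the controls, and its log2 fold change was 0.35 (edgeR adjusted p 0.239). DTX3L had 77.8, 108 and 82.4 CPM in the knockdown libraries and 81.9, 67.9 and 81.9 CPM in the controls (log2 fold change 0.21, edgeR adjusted p 0.542). PARP9 was apart between the groups and DTX3L was not. PARP14, a mono-ADP-ribosyltransferase, ran from 56.8 to 110 CPM in knockdown and from 65.8 to 91.5 CPM in control libraries (log2 fold change 0.14, edgeR adjusted p 0.818). PARP12, an enzyme of the same kind, was the single gene of the 33 with a log2 fold change below 0, at -0.15 (edgeR adjusted p 0.675).

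SAMD9 and SAMD9L, adjacent genes on chromosome 7 for related proteins that restrain poxviruses and protein synthesis, did not pass the edgeR test, and SAMD9 was at an unadjusted p under 0.05. SAMD9 had 31.0, 58.7 and 52.5 CPM in the knockdown libraries and 28.1, 20.8 and 25.2 CPM in the controls. SAMD9L had 7.16, 8.57 and 1.97 CPM in the knockdown libraries and 5.72, 4.74 and 5.0 CPM in the controls. The groups were apart for SAMD9, with knockdown library 1 close to the controls, whereas for SAMD9L knockdown library 3 was the lowest of all 6. SAMD9 had a fold of 1.92 (log2 fold change 0.94, standard error 0.24, edgeR adjusted p 0.125) and passed without knockdown library 1 and in DESeq2. SAMD9L had a log2 fold change of 0.19 ± 0.45 (SE; edgeR adjusted p 0.865).

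Of the remaining effectors, BST2 (tetherin), which holds budding virions at the cell surface, had 177, 174 and 177 CPM in the knockdown libraries and 157, 190 and 176 CPM in the controls. EPSTI1, an interferon-induced gene of epithelial cells and macrophages, had 1.80, 2.18 and 1.97 CPM in the knockdown libraries and 1.15, 1.55 and 1.15 CPM in the controls. BST2 was level between the groups (edgeR adjusted p 0.962), and EPSTI1 was apart without passing the test (log2 fold change 0.63, edgeR adjusted p 0.266). TRIM22, an antiviral ubiquitin ligase gene, had 0.238, 1.35 and 0.916 CPM in the knockdown libraries and 0.267, 0.496 and 0.262 CPM in the controls. Its log2 fold change of 1.29 had a standard error of 0.62 (edgeR adjusted p 0.343), and knockdown library 1 was the lowest of all 6. XAF1, a gene of interferon-induced cell death, had 0, 4 and 9 counts in the knockdown libraries and 6, 0 and 0 counts in the controls and was not tested; 38.3% of its exon bases are shared with PRAL on the opposite strand.

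The knockdown libraries were not alike. The median deviation of the 33 genes from the control mean, on the log2(CPM + 0.25) scale, was 0.26, 0.53 and 0.44 in knockdown libraries 1, 2 and 3, and -0.08, 0.04 and 0.02 in control libraries 1, 2 and 3. Knockdown library 2 was the highest of its group for 18 of the 33 (54.5%), where it was so for 40.2% of all genes, and the lowest for 11 (33.3%, against 40.4% of all genes). Knockdown library 1 was the lowest for 18 (54.5%), where it was so for 36.1% of all genes. The 11 lowest in library 2 were BST2, IFI35, IRF1, IRF7, IRF9, ISG15, ISG20, MX1, MX2, UBE2L6 and USP18. The genes for which it was highest had a median exon length of 5830 bases and those for which it was lowest one of 2628 bases. Over all genes the same lengths were 4794 and 3408 bases. MALAT1, a long nuclear RNA, was at 70.2, 259 and 99.7 CPM in the knockdown libraries and at 65.2, 89.7 and 84.7 CPM in the controls, so library 2 also stood apart for it; its part in these results was not tested. Without knockdown library 2, IFI27 and IFI44 passed the test, 2 of the 33. Without knockdown library 1, 5 passed, SAMD9 in addition to the 4. Without knockdown library 3 or any control library, only IFI27 passed.

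**Figure D5:**
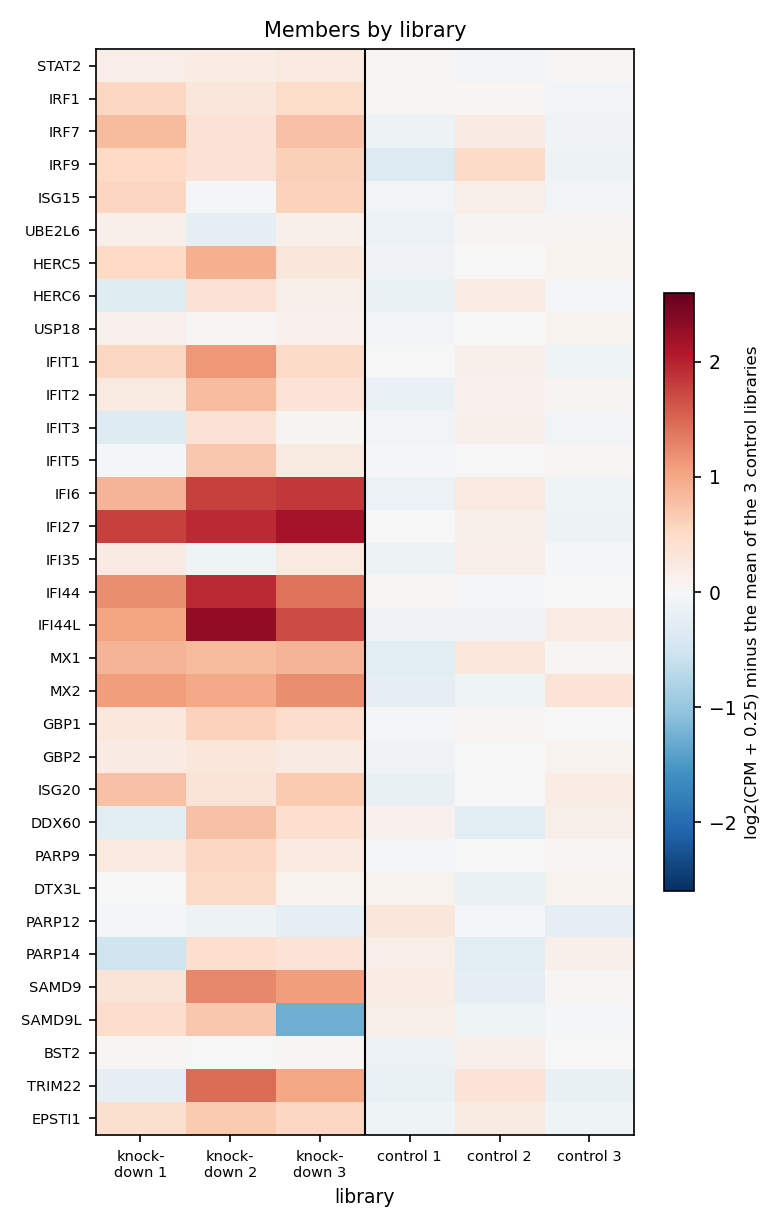
Log2(CPM + 0.25) of the 33 genes tested in each knockdown library (left) and control library (right), as the difference from the mean of the 3 control libraries (red higher, blue lower), in the order of their roles. IFI27, IFI6, IFI44, IFI44L, MX1 and MX2 are red in all 3 knockdown libraries, IFI44L is strongest in knockdown library 2, and SAMD9L is blue in knockdown library 3.

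Per transcript length, in the length-scaled TPM values given by the authors, the set spanned a wide range in control cells. In control libraries 14 of the 36 genes were under 3 TPM, 7 were between 3 and 10 TPM, and 15 were at 10 TPM or more. The highest level was that of BST2, at 320 ± 10.7 TPM in knockdown and 271 ± 10.9 TPM in control libraries. IFI6 averaged 75.1 ± 26.8 TPM in knockdown and 21.2 ± 1.96 TPM in control libraries (SD, n = 3 each), and IFI27 averaged 13.1 ± 2.11 TPM in knockdown and 1.83 ± 0.668 TPM in control libraries. IFI44 averaged 10.4 ± 2.12 TPM in knockdown and 2.95 ± 0.897 TPM in control libraries, and IFI44L averaged 4.04 ± 1.62 TPM in knockdown and 0.984 ± 0.634 TPM in control libraries. Of the 4 genes that rose, 3 were under 3 TPM in control cells. The TPM scale moved the median of all genes upward in knockdown, though not every gene: the median log2 ratio was 0.27 over all genes and 0.63 over the 33, where on the CPM scale the medians were 0.05 and 0.44. On the TPM scale 24 of the 33 were higher without overlap, against 27.0% of all genes.

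Of the interferon genes, IFNE was the only one with enough counts for the test. IFNB1, the interferon beta gene, had 8, 8 and 19 counts in the knockdown libraries and 0 counts in all controls. It was 11.0-fold higher on the same floor of 3 counts summed over the controls, which is not a lower bound. IFNL1, a type III interferon gene, had 0, 14 and 9 counts in the knockdown libraries and 0 in all controls. It was 7.22-fold higher on that floor, with no count in knockdown library 1. Both were below the filter on low counts, and without that filter their edgeR adjusted p was 0.108 for IFNB1 and 0.327 for IFNL1. IFNG, IFNW1 and 9 of the interferon alpha genes (IFNA2, IFNA4, IFNA6, IFNA7, IFNA10, IFNA14, IFNA16, IFNA17 and IFNA21) had 0 counts in every library. IFNA1, IFNA5, IFNA8, IFNA13, IFNK, IFNL2 and IFNL3 had 0 to 5 counts in the knockdown libraries together and 0 to 4 in the control libraries together. IFNE, an interferon gene of epithelia, had 17, 25 and 28 counts in the knockdown libraries and 15, 13 and 17 counts in the controls, and did not pass (log2 fold change 0.55, edgeR adjusted p 0.496).

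Upstream of the effectors, JAK1, a receptor-bound kinase, did not pass the edgeR test (log2 fold change 0.19, edgeR adjusted p 0.464). None of 9 adaptors and kinases of interferon induction passed the edgeR test, 0 were at an unadjusted p under 0.05, and DESeq2 called 0; the log2 fold change of IRF3 was -0.21. Among 7 inhibitors of signalling none passed the edgeR test, and 2 of the 7 had a log2 fold change above 0, with a median of -0.06. At an unadjusted p under 0.05 were 2 of them, SOCS1 and PTPN6, where 16.5% of all genes tested were at that p in either direction. SOCS1, a JAK inhibitor and the 1 of the 7 called by DESeq2, averaged 3.11 ± 0.389 CPM in knockdown and 1.49 ± 0.356 CPM in control libraries (log2 fold change 1.06, edgeR adjusted p 0.107). PTPN6 was lower without overlap (log2 fold change -0.37, edgeR adjusted p 0.259).

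Related sets read in the same fit had the following counts. Of 11 sensors and OAS genes tested, 1 rose and none fell, with a median log2 fold change of 0.36, where 1.10% of all genes rose. All 11 were above 0, 7 were higher without overlap and 6 were at an unadjusted p under 0.05. The shares of all genes were 13.4% higher without overlap and 9.77% higher at that p. DESeq2 called OAS1 and OAS2, where it called 2.54% of all genes higher. The gene that rose in edgeR was OAS2, which makes the activator of RNase L and averaged 6.65 ± 0.743 CPM in knockdown and 1.21 ± 0.276 CPM in control libraries (log2 fold change 2.46, edgeR adjusted p 0.00411). Of 27 other interferon-stimulated genes none passed the edgeR test and 5 were at an unadjusted p under 0.05, with a median of 0.07; over all genes tested 16.5% were at that p in either direction. Of the 5, IFITM1, IFI16, APOL6 and HELZ2 were higher, with log2 fold changes of 0.87, 1.13, 0.57 and 0.60 (edgeR adjusted p 0.270, 0.237, 0.227 and 0.235). The other was IFI30, which DESeq2 called lower. IFI30, a lysosomal thiol reductase gene, was at 17.5, 18.8 and 44.6 CPM in the knockdown libraries and at 67.2, 79.5 and 71.7 CPM in the controls. The groups were apart in the lower direction, and the log2 fold change was -1.43 (edgeR adjusted p 0.101). Of 13 genes of MHC class I presentation none passed the edgeR test and 1 was at an unadjusted p under 0.05, with a median of -0.13. Of 9 family relatives none passed the edgeR test, 0 were at an unadjusted p under 0.05 and DESeq2 called 0, with a median of 0.05. HLA-B was called by DESeq2 and not by edgeR (log2 fold change 0.84, edgeR adjusted p 0.125).

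The 6 libraries held 32342017 to 40066223 gene counts. Epithelial markers summed to 11058 to 14071 CPM in knockdown and to 13044 to 14459 CPM in control libraries, none of the 9 being at 0 in every library of a group. NKX2-1, a lung lineage factor, had 34, 31 and 24 counts in the knockdown libraries and 3, 12 and 0 counts in the controls, apart and not past the test (log2 fold change 2.43, edgeR adjusted p 0.220). KRT19, an epithelial keratin, overlapped between the groups (log2 fold change -0.18, edgeR adjusted p 0.480). So did NAPSA, another lung marker, at a log2 fold change of 0.0002. Of the 9 epithelial and lung markers 4 were above 0, with a median log2 fold change of -0.05. Of 14 immune cell markers, CD2 and MS4A1 had 0 counts in every library, and CD3D, CD3E, CD163 and HLA-DRA had 2 counts in knockdown and 0 in control libraries. Their sum was 64.6 to 82.3 CPM in knockdown and 61.1 to 73.2 CPM in control libraries, most of it CD68 at 64.3 CPM in knockdown and 62.0 CPM in control libraries. Of the 4 immune markers tested none passed, and ITGAM and CD14 were higher without overlap, where 13.4% of all genes tested were. ITGAM, an integrin chain of myeloid cells, averaged 3.57 ± 0.600 CPM in knockdown and 1.99 ± 0.141 CPM in control libraries (log2 fold change 0.85, edgeR adjusted p 0.132). CD14, a monocyte surface protein, averaged 4.04 ± 0.143 CPM in knockdown and 3.20 ± 0.0862 CPM in control libraries (log2 fold change 0.34, edgeR adjusted p 0.402). NKG7, below the filter on low counts, was also apart, with 46 counts in knockdown and 18 in control libraries. Fibroblast markers summed to 41.7 to 62.6 CPM in knockdown and 42.1 to 48.3 CPM in control libraries. Of the 8, 4 were tested and 1, PDGFRB, rose, where 1.10% of all genes tested rose. PDGFRB was at 6.38 ± 1.81 CPM in knockdown and 0.835 ± 0.183 CPM in control libraries (log2 fold change 2.92, edgeR adjusted p 0.00502). PDGFRB and DCN, the decorin gene, were higher without overlap, where 13.4% of all genes tested were, and DCN did not pass (log2 fold change 0.81, edgeR adjusted p 0.264). Both lay below 2 on the log2 CPM scale, where 2.07% of all genes rose and 21.1% were higher without overlap. COL1A1 and ACTA2, also tested, overlapped between the groups, with log2 fold changes of 0.14 and -0.54 (edgeR adjusted p 0.726 and 0.563). THY1 had 2 counts in knockdown and 4 in control libraries, and LUM had 0 in both. Endothelial markers summed to 31.4 to 40.6 CPM in knockdown and 20.8 to 37.3 CPM in control libraries. PECAM1 and VWF were higher without overlap and did not pass, with log2 fold changes of 0.32 (edgeR adjusted p 0.354) and 0.90 (edgeR adjusted p 0.432). Too low to test were TEK, with 5 counts in knockdown and 0 in control libraries, KDR, with 0 and 2, and EMCN, with 0 in both. The part of these cell types in the levels of the interferon-stimulated genes was not tested. Knockdown libraries had 19041 to 19970 genes with at least 10 counts, and control libraries had 18148 to 18566.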

How the data were processed

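The deposited table holds, per the labels' protocols, counts of reads mapped to each gene by the authors after quality control of Illumina reads, and beside the counts the authors gave TPM and FPKM values. The deposited FPKM values were not used, and the TPM values deposited by the authors were used only to set levels side by side. Which aligner and counting program were used, and whether counting used strand, was not given in the sources used here. No batch is named. The submitters' processing notes name hg19, but of 57836 genes shared with GENCODE 29 on GRCh38, 56001 (96.8%) had identical coordinates in the table, so coordinates are given as the table's and match GRCh38.

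Groups came from the labels. Genes passing filterByExpr at a minimum of 10 counts (19040) were scaled by TMM and tested with edgeR 4.0.16 (quasi-likelihood F-test; R 4.3.3), with Benjamini-Hochberg adjustment over all of them at 0.05. The common biological coefficient of variation was 22.9%. CPM use TMM-scaled totals; standard errors were back-calculated from the F statistic. Scripts were tested on simulated data. Libraries of a group differed by a chi-square per degree of freedom of 33.4 to 83.2, so none was counted as a repeat. The genes described and the other lists were chosen with earlier results of these data known. Named were every one of the 36 with at least 10 counts, each gene of the other lists that passed the test and their 2 lowest p-values, and the interferon genes; other names were chosen after their values were seen. An item the rule also named is not reported here. Where a gene had several promoter windows, any window with the motif counted, for the 36 and for all genes alike. Alternatives were 3 other scalings, no filter and a stricter filter, DESeq2 1.42.0, limma-voom (limma 3.58.1), the replicate number as a block, each library left out, the abundance trend removed and an adjusted p of 0.01. Plots used matplotlib 3.10.9 under Python 3.11.15.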

Additional observations from a re-analysis of the deposited data

How the results depend on the processing

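Of all genes, 223 passed the test, against 147 with no filter on low counts, 701 in DESeq2, 117 with the abundance trend removed, 45 at an adjusted p of 0.01 and 64 to 114 with a library left out. Of the 33 interferon-stimulated genes 4 passed, against 7 in DESeq2 (adding MX1, MX2 and SAMD9), 1 at an adjusted p of 0.01 and 1 to 5 with a library left out. In limma-voom 4 passed, with MX2 in place of IFI44L, and with no filter on low counts 3 passed, IFI27, IFI44 and IFI6. With the replicate number as a block in edgeR, 34 genes passed in all and 0 of the 33. The lowest edgeR adjusted p of the 33 in that fit was 0.0521, that of IFI27. Same-numbered libraries did not deviate together (correlations 0.01, -0.08 and -0.03), and nothing in the labels pairs them. The median log2 fold change of the 33 was 0.37 to 0.57 over the settings, the highest with library-size scaling, which moved the median of all genes to 0.17. The log2 fold changes that turned sign belonged to 10 genes, none of them past the test. With DESeq2 size factors and in DESeq2, UBE2L6 was at -0.0169 and -0.0168 and BST2 at -0.0159 and -0.0158. With the abundance trend removed, USP18 was at -0.0041, IFIT3 at -0.08 and KRT19, an epithelial keratin, at 0.11. SAMD9L was at -0.0935 in limma-voom and -0.0224 with the replicate block. With each library left out in turn, values ran from -0.0881 to 0.114 for UBE2L6, -0.083 to 0.214 for HERC6, -0.137 to 0.185 for IFIT3, -0.269 to 0.001 for PARP12, -0.042 to 0.335 for PARP14, -0.187 to 0.606 for SAMD9L, -0.0593 to 0.0778 for BST2 and -0.0356 to 0.434 for TBK1, an induction kinase. The cause was not tested. Of 836 values of 56 named genes, 776 kept direction and side of the threshold. Depth limits RSAD2, CMPK2, XAF1 and the interferon genes other than IFNE, which had too few counts for the test.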

Other observations

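Among interferon-stimulated genes outside the 36, the chemokine gene CXCL11 had 6, 22 and 21 counts in the knockdown libraries and 4, 0 and 0 counts in the controls, and without the filter on low counts its edgeR adjusted p was 0.266. OAS1, a neighbour of OAS2 that makes the same activator of RNase L, had 24.3, 25.0 and 26.7 CPM in the knockdown libraries and 12.5, 16.1 and 15.4 CPM in the controls, apart between the groups (log2 fold change 0.79, edgeR adjusted p 0.0532). APOL6, an interferon-induced apolipoprotein gene, was at a log2 fold change 0.57 above control (edgeR adjusted p 0.227). HLA-C, a class I heavy chain gene, had one of -0.52 (edgeR adjusted p 0.390). GBP3 and TRIM34, relatives of GBP1 and TRIM22, had log2 fold changes of 0.43 (edgeR adjusted p 0.351) and 0.46 (edgeR adjusted p 0.353). PTPN6, a phosphatase that restrains JAK signalling, had one of -0.37 (edgeR adjusted p 0.259).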
